A study of Mus musculus with 12 samples.

Results

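The genes described here form a module of 49 genes whose levels differed between unmodified myeloid-derived suppressor cells (MDSCs) and MDSCs carrying blank nanoparticles, and differed in the opposite direction between the latter and MDSCs carrying rapamycin-loaded nanoparticles. They were chosen by measured values. Counts were divided by the column total of their library to give CPM (counts scaled to a common library total), group means were put on a log2 scale after 0.5 CPM was added, and a gene was kept where its mean was at least 1 CPM, where the MDSC-NP-Blk minus MDSC difference was at least 0.7 in size, and where the CITED minus MDSC-NP-Blk difference was at least 0.7 in the opposite direction. Of 11301 genes with a mean of at least 1 CPM, 0.434% met this rule. In 37 the level was lower with blank particles and higher again in CITED (the lowered genes), and in 12 it was higher with blank particles and lower again in CITED (the raised genes). Since both differences chose the members, and the CITED minus MDSC difference is their sum, all 3 are given for members as descriptions with no test. The 2 differences also share the MDSC-NP-Blk libraries, so that a library of that group that stands apart moves both in opposite directions.

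MDSCs are immature myeloid cells that restrain T cells, and they comprise granulocytic and monocytic forms. Rapamycin inhibits mTOR complex 1, a kinase that promotes protein and lipid synthesis and holds back autophagy and the formation of lysosomes. Particles of PLGA, a degradable polyester, can be attached to cells through sugars that carry an azide group.

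The 12 libraries came from 3 groups of 4, named MDSC, MDSC-NP-Blk, and CITED here, all wild type and all with IL-6 as the labeled treatment. The methods describe marrow cells of female C57BL/6 mice grown with IL-6 and GM-CSF, selected as CD11b and Gr1 positive, and fed an azide-bearing sugar where particles were to be attached. For RNA sequencing, all 3 kinds of cells were then cultured further in medium with IL-6. The methods do not say whether the MDSC libraries also received the sugar. If they did not, sugar and particles cannot be told apart in MDSC-NP-Blk against MDSC. MDSC carried no particles, MDSC-NP-Blk carried PLGA particles with no drug, and CITED carried PLGA particles loaded with rapamycin. The labels call the replicates biological without naming animals or cultures, and their tissue field reads CNS, whereas the methods describe cultured marrow cells. Cells with free rapamycin, or with particles that were not attached, were not analysed here.

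Depth lay between 20604809 and 37855478 counts per library. Itgam, which encodes CD11b, stood at 2132 to 2742 CPM and the granulocytic marker Ly6g at 154 to 192 CPM, whereas Ly6c1 reached at most 2.18 CPM. The monocytic marker Ly6c2 differed between groups, at 1161 to 1200 CPM in MDSC, 1273 to 1307 CPM in MDSC-NP-Blk, and 732 to 820 CPM in CITED. Of 13 CNS marker genes, 8, among them Snap25, Gfap, and Mog, had 3 counts or fewer in every library. Scaling by column totals placed the median gene at -0.26 in MDSC-NP-Blk minus MDSC, at -0.01 in CITED minus MDSC-NP-Blk, and at -0.26 in CITED minus MDSC, on the log2 scale. Factors from the trimmed mean of M values (TMM) raise these 3 differences by 0.26, 0.01, and 0.27. Under column totals, the 0.7 limit for the first difference was therefore nearer to the median gene for lowered genes than for raised genes, and 1700 genes met it downwards against 252 upwards.

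**Figure D1:**
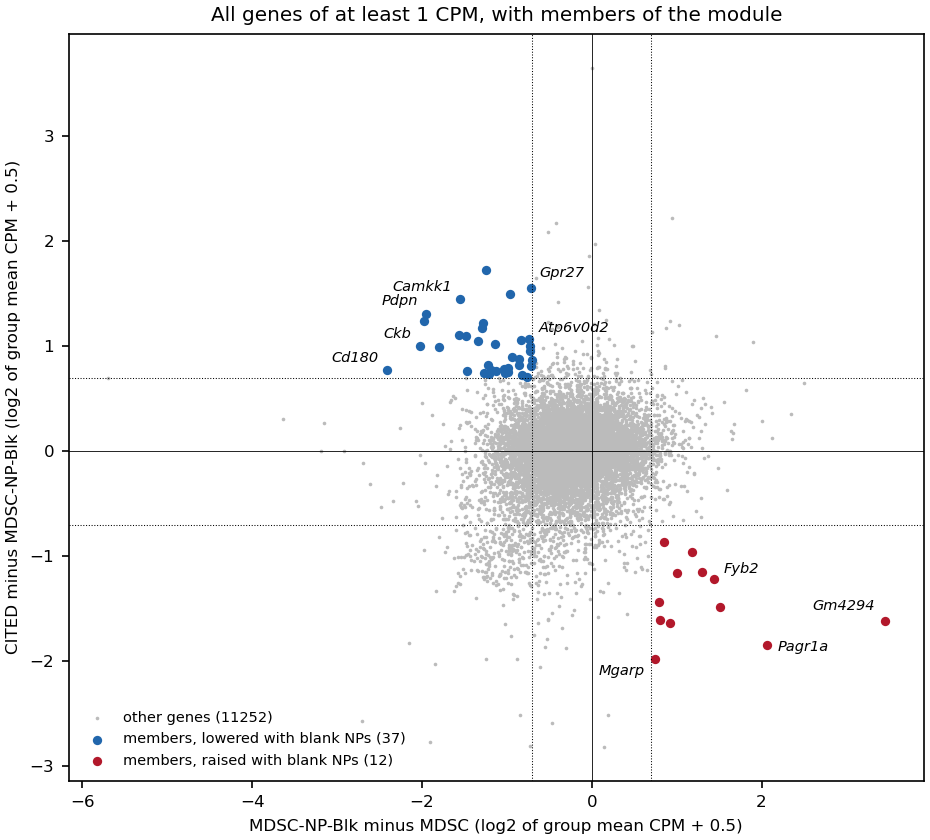
Each point is a gene with a mean of at least 1 CPM, placed by its MDSC-NP-Blk minus MDSC difference (x axis) and its CITED minus MDSC-NP-Blk difference (y axis), both in log2 of group mean CPM + 0.5. Dotted lines mark 0.7 in each direction. The 37 lowered genes (blue) lie at the upper left and the 12 raised genes (red) at the lower right of the 11301 genes.

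The lowered genes were protein-coding in 34 of 37 cases. In 31 of them all 4 MDSC-NP-Blk libraries lay below all MDSC and all CITED libraries, a pattern seen in 5.57% of the 11301 genes and partly fixed by the rule. The median difference was -1.12 for MDSC-NP-Blk minus MDSC and 0.90 for CITED minus MDSC-NP-Blk. Relative to the MDSC mean, the median of the 37 genes lay between -1.16 and -1.11 in the 4 MDSC-NP-Blk libraries and between -0.30 and -0.10 in the 4 CITED libraries, so that the MDSC-NP-Blk libraries lay close together over the lowered genes as a whole.

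**Figure D2:**
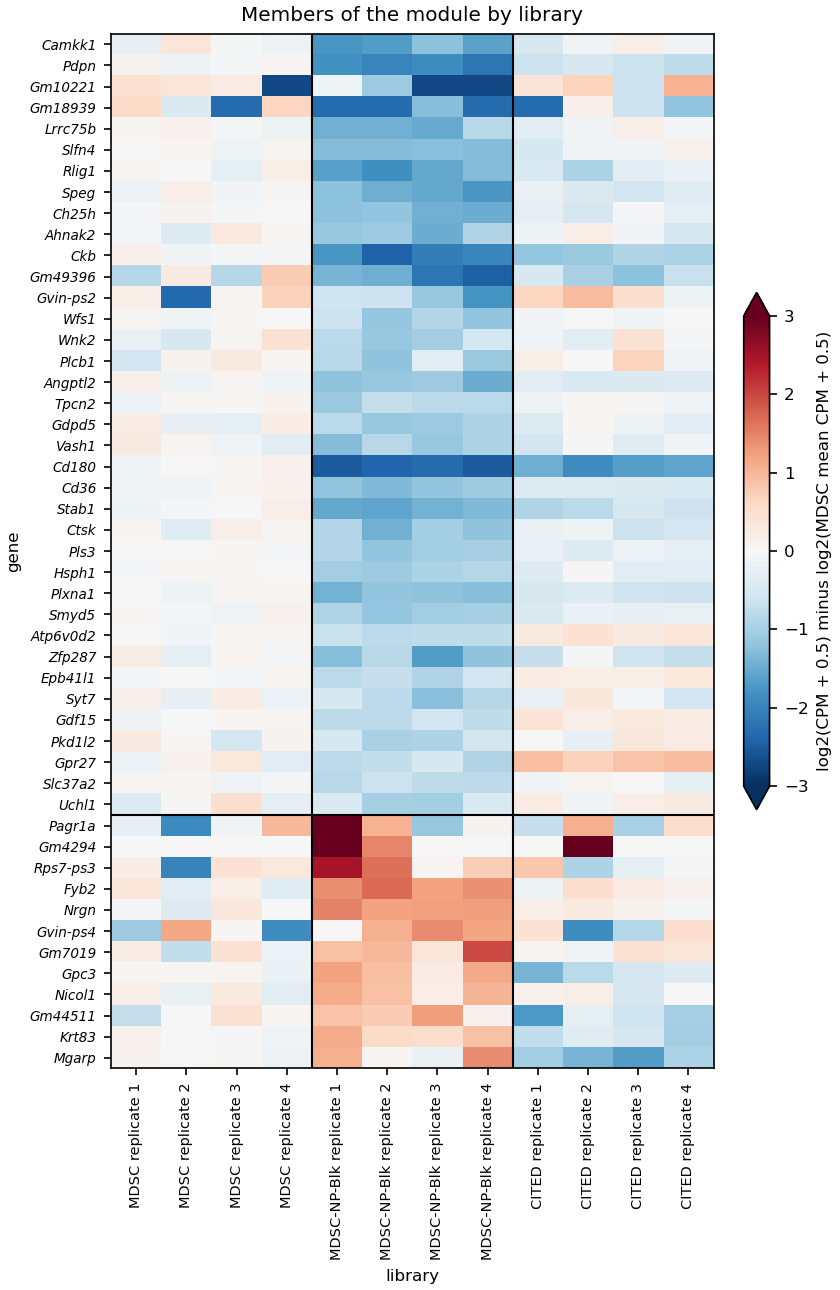
Each row is a member and each column a library, and the color gives log2(CPM + 0.5) minus log2(MDSC mean CPM + 0.5), cut at 3 in size. Lowered genes are above the horizontal line and raised genes below it. The MDSC-NP-Blk columns are blue throughout most lowered genes, whereas several raised genes are red in 1 or 2 MDSC-NP-Blk libraries and pale in the rest.

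To show what lies before the start of lowered genes, the 250 bases upstream of the canonical transcript start are given for Slfn4 and Atp6v0d2, which hold an AP-1 site, for Ch25h, which holds a cAMP response element, and for Pdpn, which holds an E-box. The sequences are from GRCm39, 5′ to 3′ on the strand of the gene, at chr11:83065762-83066011 (plus strand), chr4:19922615-19922864 (minus strand), chr19:34452565-34452814 (minus strand), and chr4:143026144-143026393 (minus strand), and capitals mark the motif.
Slfn4: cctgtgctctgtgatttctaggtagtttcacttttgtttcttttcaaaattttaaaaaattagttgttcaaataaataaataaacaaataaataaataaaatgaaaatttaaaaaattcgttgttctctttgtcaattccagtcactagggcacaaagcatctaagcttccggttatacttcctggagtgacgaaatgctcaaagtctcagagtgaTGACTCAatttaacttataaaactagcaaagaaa
Atp6v0d2: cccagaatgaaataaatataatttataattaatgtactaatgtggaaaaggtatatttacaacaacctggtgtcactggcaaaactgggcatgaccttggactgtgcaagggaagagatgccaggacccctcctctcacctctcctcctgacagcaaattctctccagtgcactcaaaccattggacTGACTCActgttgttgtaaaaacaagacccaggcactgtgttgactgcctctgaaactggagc
Ch25h: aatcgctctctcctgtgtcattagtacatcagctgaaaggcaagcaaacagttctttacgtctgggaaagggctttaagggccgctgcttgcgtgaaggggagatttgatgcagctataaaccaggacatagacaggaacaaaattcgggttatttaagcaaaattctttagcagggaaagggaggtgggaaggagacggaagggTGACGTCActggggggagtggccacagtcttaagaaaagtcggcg
Pdpn: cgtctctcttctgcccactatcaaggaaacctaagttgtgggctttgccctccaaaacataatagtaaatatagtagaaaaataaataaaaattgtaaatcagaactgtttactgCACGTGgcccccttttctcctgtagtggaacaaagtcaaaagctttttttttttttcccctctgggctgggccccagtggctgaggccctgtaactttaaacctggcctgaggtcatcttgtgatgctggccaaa

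Motifs were searched on both strands. The AP-1 site TGANTCA lay in 4 of 37 promoters of lowered genes (Gm18939, Slfn4, Atp6v0d2, and Slc37a2), or 10.8%, and in 4.59% of 11287 promoters of genes with at least 1 CPM. Of these, Gm18939 is a pseudogene of Usp9x that no longer met the rule when summed with it. With TMM factors only Slfn4 of these 4 genes met the rule. In Slfn4 the AP-1 site began 34 bases and in Atp6v0d2 63 bases before the start. The cAMP response element TGACGTCA was found in Ch25h among the lowered genes, 45 bases before its start, and in 2.10% of all promoters, and the E-box CACGTG in Pdpn and in 7.95%. The GC box GGGCGG lay in 32.4% of lowered promoters and 49.5% of all promoters, and the core GCGTG in 18.9% and 41.6%. None of the 37 held the amino acid response element TGATGNAA, which was in 2.12% of all promoters. None of the 12 raised genes held TGANTCA, TGACGTCA, or CACGTG. Of the 10 motifs searched, the NF-kB site lay in 56.8% of lowered and 55.4% of all promoters, and the STAT site in 5.41% and 6.71%. The early growth response site lay in 2.70% and 6.08%, and the CArG box in 0% and 1.16%. These are matches of letters and were not tested.

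Among cell-surface proteins, Pdpn (podoplanin, a mucin-type glycoprotein) showed one of the largest pairs of differences. Its level was 30.7, 25.5, 27.9, and 29.4 CPM in the 4 MDSC libraries, 7.67, 6.84, 7.404, and 5.97 CPM in MDSC-NP-Blk, and 17.9, 19.9, 17.9, and 16.4 CPM in CITED. The 3 groups did not overlap, and CITED lay between the other two. MDSC exceeded MDSC-NP-Blk by 4.07-fold and CITED exceeded MDSC-NP-Blk by 2.59-fold, which took back 67.2% of the log2 difference.

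Cd36, a scavenger receptor for oxidized lipoproteins and fatty acids, was at 46.7, 46.2, 52.3, and 53.9 CPM in MDSC, at 21.5, 19.5, 21.7, and 23.7 CPM in MDSC-NP-Blk, and at 37.9, 37.4, 36.9, and 36.3 CPM in CITED. Stab1, another scavenger receptor (stabilin-1), had means of 20.2 ± 1.94, 6.99 ± 0.621, and 12.2 ± 1.64 CPM (SD, n = 4) in the same order of groups. For both genes CITED was above every MDSC-NP-Blk library and below every MDSC library, with 64.8% of the difference taken back for Cd36 and 52.3% for Stab1.

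Plxna1, a plexin that serves as a semaphorin receptor, took the most counts of the module, with no correction for transcript length. It stood at 139.9, 128, 149, and 149 CPM in MDSC, at 52.5, 61.8, 60.9, and 57.7 CPM in MDSC-NP-Blk, and at 101, 106, 93.4, and 92.2 CPM in CITED, again without overlap between the groups. Cd180, a homologue of the Toll-like receptors, had the largest MDSC-NP-Blk minus MDSC difference among the lowered genes, -2.41, and the smallest share taken back, 32.0%. Its libraries held 13.9, 15.2, 15.7, and 16.8 CPM in MDSC, 2.33, 2.56, 2.72, and 2.33 CPM in MDSC-NP-Blk, and 5.25, 3.79, 4.56, and 4.801 CPM in CITED. The CITED libraries of Cd180 thus lay just above those of MDSC-NP-Blk and far below those of MDSC.

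Gpr27, an orphan G protein-coupled receptor, showed the opposite position. Its level was 2.66, 3.45, 3.94, and 2.32 CPM in MDSC, 1.602, 1.66, 2.08, and 1.44 CPM in MDSC-NP-Blk, and 6.19, 5.29, 5.99, and 6.35 CPM in CITED. All 4 CITED libraries were above all MDSC libraries, and CITED exceeded MDSC by 1.93-fold. Its MDSC-NP-Blk minus MDSC difference, -0.71, was among the 3 closest to the 0.7 limit, and it met the rule in 8 of 12 runs that each left out 1 library.

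A second group of lowered genes encodes proteins of lysosomes and of secretion. Atp6v0d2, a subunit of the proton pump that acidifies lysosomes, was at 92.2, 87.3, 97.3, and 94.6 CPM in MDSC, at 58.5, 53.6, 54.7, and 54.7 CPM in MDSC-NP-Blk, and at 111, 125, 113, and 119 CPM in CITED. Its CITED libraries were above all others, 2.11-fold the MDSC-NP-Blk mean and 1.26-fold the MDSC mean. Ctsk, the lysosomal protease cathepsin K, had means of 5.26 ± 0.856, 2.14 ± 0.442, and 3.98 ± 0.726 CPM (SD, n = 4) in MDSC, MDSC-NP-Blk, and CITED. CITED overlapped MDSC for Ctsk.

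Tpcn2, a cation channel of endosomes and lysosomes, had means of 22.9 ± 1.96, 12.4 ± 1.46, and 22.3 ± 1.64 CPM (SD, n = 4), and Slc37a2, a transporter of phosphorylated sugars, had 29.01 ± 1.69, 16.9 ± 0.987, and 27.9 ± 2.88 CPM. In both the CITED and MDSC libraries overlapped and the MDSC-NP-Blk libraries lay below them. Neither met the rule with TMM factors, under which their MDSC-NP-Blk minus MDSC differences were -0.60 and -0.50.

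Gdf15, a secreted stress cytokine of the TGF-β family, was at 4.85, 5.52, 5.702, and 5.89 CPM in MDSC, at 2.96, 2.99, 3.52, and 3.05 CPM in MDSC-NP-Blk, and at 7.41, 6.37, 6.84, and 6.46 CPM in CITED. Its CITED libraries were above all MDSC libraries, and with TMM factors its first difference was -0.49, short of the limit. Angptl2, a secreted angiopoietin-like protein, had means of 16.2 ± 1.74, 6.65 ± 0.817, and 12.1 ± 0.461 CPM (SD, n = 4), with all CITED libraries below all MDSC libraries. Vash1, a carboxypeptidase that removes the last tyrosine of tubulin, stood at 1.56 ± 0.351, 0.506 ± 0.144, and 1.23 ± 0.288 CPM.

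Ch25h encodes cholesterol 25-hydroxylase, which makes the oxysterol 25-hydroxycholesterol. It was at 6.0, 6.77, 6.09, and 6.36 CPM in MDSC, at 2.38, 2.48, 2.001, and 1.93 CPM in MDSC-NP-Blk, and at 5.01, 4.31, 5.99, and 5.06 CPM in CITED. MDSC-NP-Blk was apart from both other groups, and every CITED library was a little below every MDSC library. Exons of a gene on the other strand, Gm26902, cover 50.3% of the exon bases of Ch25h, and whether the counting used strand is not given in the sources used here.

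Among enzymes of signaling, Camkk1, a kinase that acts above the CaM kinases, had the largest smaller difference of the lowered genes. Its libraries held 2.98, 4.75, 3.47, and 3.202 CPM in MDSC, 0.728, 0.792, 1.24, and 0.853 CPM in MDSC-NP-Blk, and 2.44, 3.32, 4.18, and 3.36 CPM in CITED. CITED and MDSC overlapped, and 93.5% of the difference was taken back. Speg, a muscle-type kinase, was lower in every CITED library than in any MDSC library, with means of 3.73 ± 0.460, 1.02 ± 0.227, and 2.73 ± 0.309 CPM (SD, n = 4). Wnk2, a kinase that regulates ion transport, had 5.33 ± 1.65, 2.71 ± 0.621, and 5.39 ± 1.43 CPM. Plcb1, a phospholipase C, and Gdpd5, a glycerophosphodiesterase, had MDSC means of 1.26 and 2.34 CPM and MDSC-NP-Blk means of 0.486 and 0.934 CPM. For Plcb1 the MDSC-NP-Blk libraries overlapped another group.

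Ckb, the brain-type creatine kinase, had means of 25.1 ± 1.85 CPM in MDSC, 5.79 ± 1.205 CPM in MDSC-NP-Blk, and 12.1 ± 1.02 CPM in CITED (SD, n = 4), so that 49.3% of its log2 difference was taken back. Slfn4, a Schlafen gene induced by interferon in myeloid cells, was at 50.6, 52.8, 46.7, and 53.9 CPM in MDSC, at 20.4, 20.3, 21.3, and 20.5 CPM in MDSC-NP-Blk, and at 36.2, 47.2, 48.5, and 56.02 CPM in CITED. The 4 MDSC-NP-Blk libraries of Slfn4 lay close together, whereas CITED was spread widely and overlapped MDSC. Summed with Slfn3, with which it shares 21.3% of its 31-base words, Slfn4 still met the rule, with differences of -1.15 and 0.88. Slfn3 alone had means of 17.4, 9.94, and 9.58 CPM in MDSC, MDSC-NP-Blk, and CITED, lower with blank particles and not higher again in CITED.

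Some of the remaining lowered genes encode proteins of folding, of the endoplasmic reticulum, and of the cytoskeleton. Hsph1, a chaperone of the Hsp110 family, had means of 37.7 ± 1.22, 18.8 ± 1.46, and 31.9 ± 4.47 CPM (SD, n = 4) in MDSC, MDSC-NP-Blk, and CITED. Wfs1 (wolframin, a protein of the endoplasmic reticulum) had 17.2 ± 1.07, 8.74 ± 1.75, and 16.7 ± 0.624 CPM, and CITED overlapped MDSC in both genes. The actin-bundling Pls3 had 22.1 ± 0.405, 10.6 ± 0.936, and 18.2 ± 1.36 CPM, whereas the membrane-skeleton gene Epb41l1 was higher in every CITED library than in any MDSC library, with 11.8 ± 0.555, 6.88 ± 0.725, and 13.8 ± 0.651 CPM.

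Smyd5, a lysine methyltransferase, had means of 14.7 ± 1.09, 7.002 ± 0.570, and 12.1 ± 0.965 CPM (SD, n = 4). Ahnak2, which encodes a very large scaffold protein, had 13.2 ± 2.55, 5.72 ± 1.03, and 12.1 ± 2.44 CPM, with overlap of CITED and MDSC, and Lrrc75b had 6.402 ± 0.579, 2.34 ± 0.686, and 6.14 ± 1.01 CPM, likewise with overlap. Rlig1, an RNA ligase, had 4.06 ± 0.632, 1.04 ± 0.242, and 2.81 ± 0.681 CPM, and 45.1% of its exon bases lie in exons of genes on the other strand, among them Cep290. Uchl1 (a ubiquitin hydrolase), Syt7 (a synaptotagmin of exocytosis), Zfp287 (a zinc finger gene), and Pkd1l2 were low in all groups, with means over the 12 libraries of 2.82, 1.28, 1.65, and 1.03 CPM. Of these 4, Syt7 and Pkd1l2 had MDSC-NP-Blk libraries that overlapped another group, and Pkd1l2 met the rule in 5 of 12 runs that each left out 1 library.

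**Figure D3:**
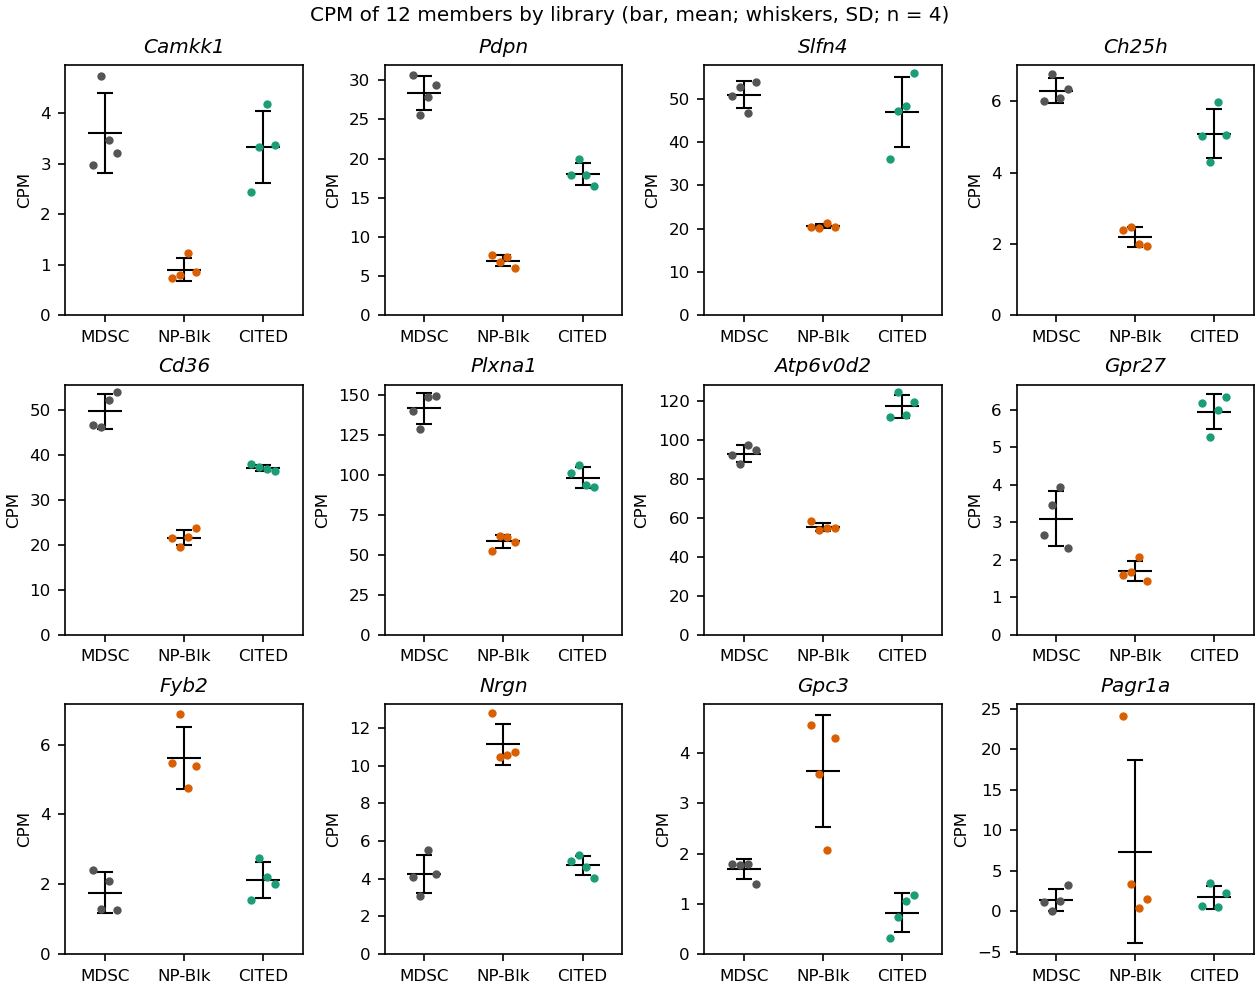
CPM by library for 12 members in MDSC, MDSC-NP-Blk (NP-Blk), and CITED, with each group's mean (bar) and SD (whiskers, n = 4), on linear axes that start at 0 except for Pagr1a, where a whisker reaches below 0. In the 8 lowered genes at the top the MDSC-NP-Blk points lie apart from both other groups, CITED lies above MDSC for Atp6v0d2 and Gpr27, and for Pagr1a the higher MDSC-NP-Blk mean comes from 1 library at 24.2 CPM.

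Of the 37 lowered genes, 6 shared at least 10% of their 31-base words with another gene on the same strand, and counts can then be divided differently between the copies in different libraries. All words of Gm10221 occur in other genes, and the closest is Atp5mg, an ATP synthase subunit. Gm10221 held 4.02, 3.71, 3.39, and 0 CPM in MDSC, 2.52, 1.03, 0, and 0 CPM in MDSC-NP-Blk, and 3.796, 4.68, 1.604, and 6.24 CPM in CITED. Its values at 0 fell in both MDSC and MDSC-NP-Blk. Summed with Atp5mg it stood at 86.1, 93.2, and 98.1 CPM and no longer met the rule. The same held for Gm18939, a pseudogene of Usp9x with 0 CPM in 3 of 4 MDSC-NP-Blk libraries and in 1 library each of MDSC and CITED. Gm49396 with Igflr1 met the rule when summed, as did Slfn4 with Slfn3. The closest gene to Ckb, Gm12892, was at 0 in all libraries, so that their sum is Ckb alone.

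Gvin-ps2, a lowered gene, and Gvin-ps4, a raised gene, are each the closest gene to the other. Gvin-ps2 shares 99.1% of its words with other genes. Gvin-ps2 was at 2.37, 0, 2.14, and 3.53 CPM in MDSC and Gvin-ps4 at 0.359, 3.58, 1.37, and 0 CPM in the same libraries, so that the library with none of one held the most of the other. Their sum was 3.34 ± 0.406 CPM in MDSC, 3.97 ± 1.097 CPM in MDSC-NP-Blk, and 4.29 ± 0.790 CPM in CITED (SD, n = 4). The sum differed by 0.22 and 0.10 on the log2 scale and did not meet the rule.

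Fewer counts lay behind the raised genes. Their median was 2.97 CPM, against 4.96 CPM for the lowered genes and 26.7 CPM for all 11301 genes, with no correction for length, and 8 of 12 were protein-coding. In 4 of them, Fyb2, Nrgn, Gpc3, and Krt83, all MDSC-NP-Blk libraries lay above all others, which holds for 1.73% of the 11301 genes. Relative to the MDSC mean, the median of the 12 genes was 1.16, 1.01, 0.30, and 1.08 in MDSC-NP-Blk replicates 1 to 4 and lay between -0.50 and -0.03 in the CITED libraries. MDSC-NP-Blk replicate 3 was thus lower than the other 3 libraries of its group over the raised genes, and without it 17 raised and 49 lowered genes met the rule. Without MDSC-NP-Blk replicate 1, 2, or 4, the raised genes numbered 10, 15, and 10 and the lowered genes 49, 48, and 47.

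Fyb2, an adaptor-like protein related to the T cell adaptor Fyb1, was at 2.41, 1.29, 2.101, and 1.25 CPM in MDSC, at 5.48, 6.87, 4.76, and 5.39 CPM in MDSC-NP-Blk, and at 1.55, 2.76, 2.195, and 1.99 CPM in CITED. Nrgn (neurogranin, which binds calmodulin) was at 4.096, 3.11, 5.53, and 4.22 CPM in MDSC, at 12.8, 10.5, 10.6, and 10.7 CPM in MDSC-NP-Blk, and at 4.92, 5.24, 4.64, and 4.06 CPM in CITED. For both genes CITED overlapped MDSC, and 85.1% and 89.3% of the log2 difference were taken back.

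Gpc3, a glypican that carries heparan sulfate at the cell surface, was at 1.796, 1.77, 1.801, and 1.39 CPM in MDSC, at 4.56, 3.59, 2.08, and 4.31 CPM in MDSC-NP-Blk, and at 0.328, 0.749, 1.06, and 1.18 CPM in CITED. Mgarp, a mitochondrial protein, was at 5.71, 5.35, 5.44, and 4.78 CPM in MDSC, at 11.7, 5.65, 4.602, and 15.2 CPM in MDSC-NP-Blk, and at 2.39, 1.73, 1.31, and 2.51 CPM in CITED. For both genes every CITED library was below every MDSC library, and in Mgarp the MDSC-NP-Blk replicates 1 and 4 exceeded every MDSC library. Krt83, a hair keratin, was also lower in every CITED library than in any MDSC library, with means of 8.41 ± 0.678, 14.9 ± 3.01, and 5.22 ± 1.14 CPM (SD, n = 4). Krt83 shares 39.2% of its words with other genes, and it met the rule when summed with the closest of them, Krt86. Nicol1, a secreted protein, had means of 2.98 ± 0.743, 5.74 ± 1.56, and 2.92 ± 0.692 CPM, with 1 MDSC-NP-Blk library inside the range of the other groups. Without MDSC-NP-Blk replicate 1, 8 of the 12 raised genes met the rule, and Krt83 and Mgarp were not among them. Mgarp also missed the rule without MDSC-NP-Blk replicate 4.

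For Pagr1a and Gm4294, 1 MDSC-NP-Blk library carried the difference, and neither met the rule without it. Pagr1a, a component of a histone methyltransferase complex, was at 24.2, 3.38, 0.360, and 1.53 CPM in MDSC-NP-Blk, against at most 3.202 CPM in MDSC and 3.42 CPM in CITED. Gm4294, a pseudogene of the ribosomal gene Rpl15, was at 0 in all 4 MDSC libraries, at 19.02, 0.872, 0, and 0 CPM in MDSC-NP-Blk, and at 0, 5.15, 0, and 0 CPM in CITED. Rps7-ps3, a pseudogene of another ribosomal gene, was at 1.83, 0, 2.23, and 1.995 CPM in MDSC, at 10.6, 5.81, 1.64, and 2.87 CPM in MDSC-NP-Blk, and at 3.05, 0.562, 1.14, and 1.44 CPM in CITED. In all 3 the highest value was in MDSC-NP-Blk replicate 1, and Rps7-ps3 met the rule without that library. For Gm4294, which had counts in 1 CITED library, the CITED against MDSC-NP-Blk log2 fold change turned to 1.99 when MDSC-NP-Blk replicate 1 was left out.

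Pagr1a shared 98.7% of its words with other genes. Its sum with the closest of them, Gm42742, was 26.7, 27.3, and 24.7 CPM in MDSC, MDSC-NP-Blk, and CITED, a range within 3 CPM. Gm4294 with Rpl15 and Gm7019 with Birc3 also missed the rule when summed, whereas Gm44511 with Klrb1c met it, with differences of 0.78 and -1.42. Of the 13 members that share at least 10% of their words, 12 had their closest gene in the count table. Counting Gvin-ps2 and Gvin-ps4 once and leaving out Ckb, these gave 10 sums, of which 4 met the rule. In 10 of 49 members (Rlig1, Ch25h, Wfs1, Gdpd5, Hsph1, Smyd5, Gdf15, Uchl1, Nrgn, and Nicol1) at least 10% of exon bases lie in exons on the other strand.

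CITED returned to different positions relative to MDSC. For the lowered genes a median of 80.6% of the log2 difference was taken back, from 32.0% for Cd180 to 219% for Gpr27. The median CITED minus MDSC difference was -0.19, between -0.30 and -0.10 in single CITED libraries (SD 0.0953, n = 4). All CITED libraries were above all MDSC libraries for 4 of the 37 genes (Atp6v0d2, Epb41l1, Gdf15, and Gpr27), against 18.0% of the 11301 genes, and below them for 11, against 48.7%, and the groups overlapped for 22. Among the 12 raised genes, 0 were above, 3 were below (Gpc3, Krt83, and Mgarp), and 9 overlapped.

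The position of CITED depended on the scaling. With TMM factors the median CITED minus MDSC difference of the lowered genes was 0.035 instead of -0.19, and 20 of 37 genes were above MDSC instead of 10. Pdpn, Stab1, Ckb, and Cd180 stayed below MDSC on both scales, with TMM differences of -0.37, -0.43, -0.76, and -1.38. Gpr27, Atp6v0d2, Gdf15, and Epb41l1 stayed above it, with 1.09, 0.60, 0.53, and 0.49. With TMM factors, however, none of the genes that stayed above MDSC met the rule. Their MDSC-NP-Blk minus MDSC differences were then -0.49, -0.48, -0.49, and -0.48 in the same order. For Plxna1, Cd36, Speg, and Angptl2, whose CITED libraries were all below MDSC under column totals, the TMM differences were smaller in size, -0.25, -0.15, -0.15, and -0.14. Ch25h, Smyd5, and Pls3 were also all below MDSC under column totals, and their TMM differences were near 0, at -0.031, -0.011, and -0.004.

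**Figure D4:**
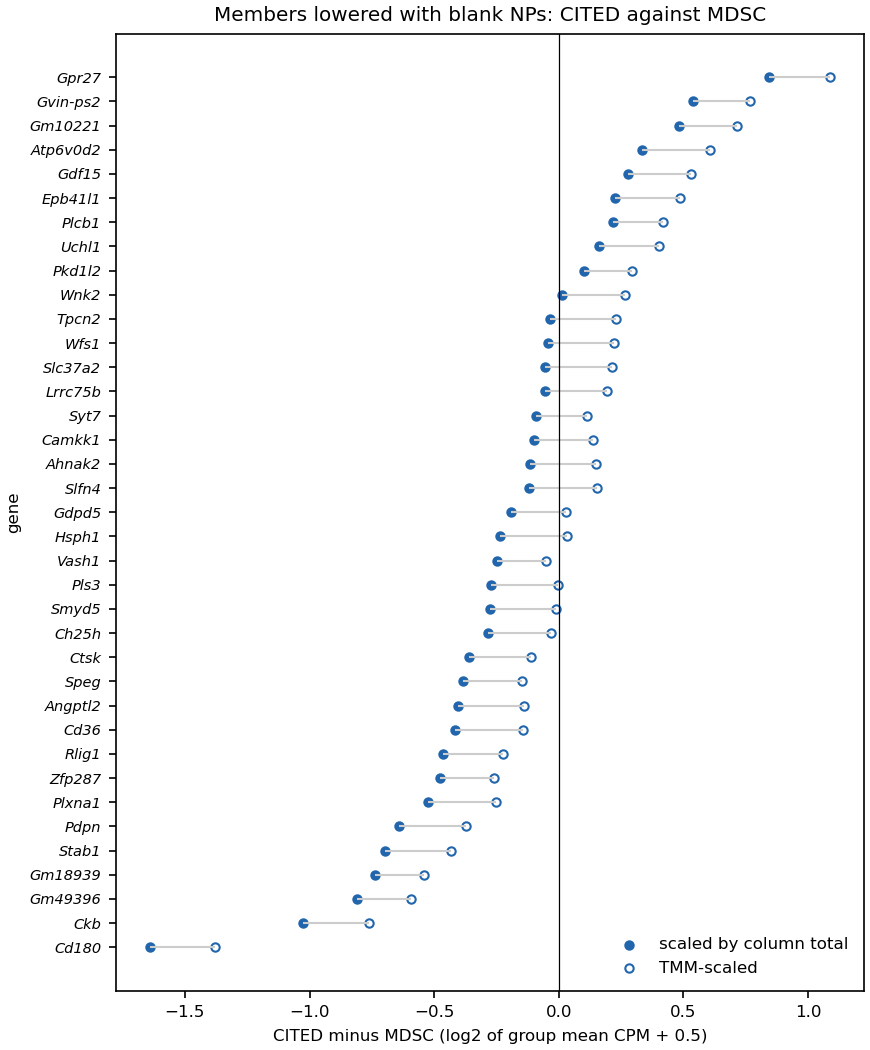
CITED minus MDSC difference (x axis, log2 of group mean CPM + 0.5) of the 37 lowered genes (y axis), scaled by column totals (filled) or with TMM factors (open). Open points lie to the right of filled points for every gene, with 10 filled and 20 open points above 0.

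Membership depended on the scaling as well. With TMM factors 54 genes met the rule, 27 raised and 27 lowered, and 36 of the 49 members were among them, all 12 raised genes and 24 of 37 lowered genes. The 18 genes that entered included 15 raised genes, the highest of them Pglyrp1, a peptidoglycan-binding granule protein, at 982 CPM with differences of 0.82 and -0.80, and Fosl1, an AP-1 subunit, with 0.88 and -0.85. Both were named after their values were seen. A core of 17 members met the rule with TMM factors, with the size factors of DESeq2, and in all 12 runs that left out 1 library, had MDSC-NP-Blk libraries apart from both other groups, and shared under 10% of their words. It held 14 lowered genes (Camkk1, Pdpn, Lrrc75b, Rlig1, Speg, Ch25h, Ahnak2, Angptl2, Vash1, Cd180, Cd36, Pls3, Plxna1, and Smyd5) and 3 raised genes (Fyb2, Nrgn, and Gpc3). These groups were drawn on the values that chose the members.

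Near the limit, the lowered genes just inside were Uchl1, Slc37a2, and Gpr27, with smaller differences of 0.703, 0.704, and 0.711, and the raised genes just inside were Mgarp, Krt83, and Gm44511, with 0.749, 0.793, and 0.806. Just outside were Ccl2, Bdh1, and Dst, with 0.698, 0.698, and 0.697, and Coq8a, Hepacam2, and Vmac, with 0.689, 0.666, and 0.664. Ccl2, a chemokine that attracts monocytes, had a MDSC-NP-Blk minus MDSC difference of -5.70 and remained at -5.003 in CITED minus MDSC.

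By the median, lowered genes were longer and raised genes shorter than all genes. The transcript length had a median of 3876 bases for the lowered genes, 1333 bases for the raised genes, and 3374 bases for all genes with a model, and the GC content had medians of 53.4%, 50.7%, and 50.2%. Expression relative to the mean over libraries correlated with length across genes with Spearman's rho between 0.218 and 0.340 in the MDSC libraries, between -0.407 and 0.0859 in MDSC-NP-Blk, and between -0.328 and -0.176 in CITED. Genes are not independent replicates, and these values are descriptions. After a correction for length within each library, 45 genes met the rule, 25 raised and 20 lowered, and 31 of the 49 members were among them, 11 raised and 20 lowered.

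Members fell into 5 of 39 lists of genes with a shared function or cell type, and the other genes of those lists, which the rule did not keep, were tested with edgeR across all genes. A gene was called where its adjusted p was below 0.05 and its log2 fold change at least 1 in size. Of the 17676 genes tested, 1.88% were called higher and 2.86% lower in MDSC-NP-Blk than in MDSC, 0.651% higher and 2.00% lower in CITED than in MDSC-NP-Blk, and 3.28% higher and 6.70% lower in CITED than in MDSC. The first comparison gave 333 calls upwards and 505 downwards with TMM factors, and 146 upwards and 1060 downwards with column totals. At an unadjusted p below 0.05 with no fold change limit, the shares of the 11301 genes of at least 1 CPM were 33.2% higher and 31.1% lower, 22.3% higher and 22.6% lower, and 35.8% higher and 34.2% lower in the same order, so that such counts are common among all genes.

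The list of lysosome and autophagy genes held Atp6v0d2 and Ctsk. Of its 44 other genes, 1 was called higher and 0 lower in MDSC-NP-Blk than in MDSC (1.88% and 2.86% of all genes tested), with a median log2 fold change of 0.25 against -0.003 over all genes of at least 1 CPM. None of the 44 was called in CITED against MDSC-NP-Blk (0.651% and 2.00%), where the median was 0.31 against 0.004, and 7 were called higher and 0 lower in CITED than in MDSC (3.28% and 6.70%). At an unadjusted p below 0.05, edgeR placed 29 higher and 7 lower with blank particles, 33 higher and 4 lower in CITED against MDSC-NP-Blk, and 35 higher and 4 lower in CITED against MDSC, and at the adjusted p and fold change limits DESeq2 made the same number of calls as edgeR. The unadjusted shares of all genes of at least 1 CPM were 33.2% and 31.1%, 22.3% and 22.6%, and 35.8% and 34.2% in the same order. With column totals the blank particle median was -0.02, so that its direction turned with the scaling, with 13 higher and 15 lower at an unadjusted p below 0.05, whereas the CITED against MDSC-NP-Blk median was 0.30. Column totals left 0 calls with blank particles and 2 higher and 0 lower in CITED against MDSC.

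The gene called in both comparisons with MDSC, Npc2, which moves cholesterol within lysosomes, was at 384 ± 4.93, 657 ± 42.9, and 899 ± 53.1 CPM (SD, n = 4) in MDSC, MDSC-NP-Blk, and CITED. Its edgeR log2 fold change in MDSC-NP-Blk against MDSC was 1.04 (SE 0.0504, adjusted p = 7.21e-18). The autophagy receptor Sqstm1 differed by 0.99 (SE 0.0436, edgeR adjusted p = 5.72e-19), and Map1lc3b, a protein of the autophagosome membrane, by 0.97 (SE 0.0565, edgeR adjusted p = 7.98e-16), both short of the fold change limit. None of these 3 genes was lower with blank particles, the direction in which Atp6v0d2 and Ctsk differed.

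**Figure D5:**
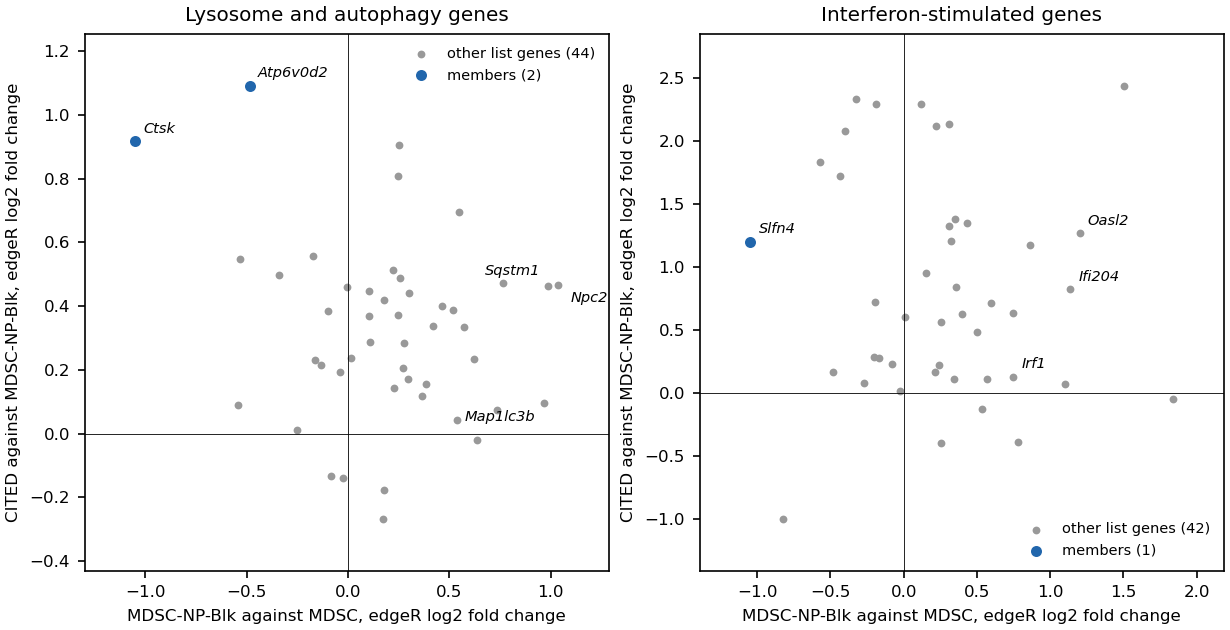
edgeR log2 fold changes of MDSC-NP-Blk against MDSC (x axis) and of CITED against MDSC-NP-Blk (y axis) for the lysosome and autophagy genes (left) and the interferon-stimulated genes (right) of at least 1 CPM, with members in blue and the other 44 and 42 list genes in gray. Atp6v0d2, Ctsk, and Slfn4 lie at the left edge, and most other list genes lie to the right of 0 with the TMM factors used here.

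Slfn4 was the member among interferon-stimulated genes. Of the 42 others, 5 rose and 0 fell with blank particles (1.88% and 2.86% of all genes tested), 15 rose and 1 fell in CITED against MDSC-NP-Blk (0.651% and 2.00%), and 23 rose and 1 fell in CITED against MDSC (3.28% and 6.70%). Their median was 0.28 with blank particles and 0.63 in CITED against MDSC-NP-Blk, or 0.02 and 0.62 with column totals, under which 2 rose and 1 fell with blank particles. At an unadjusted p below 0.05, 21 were higher and 5 lower with blank particles (33.2% and 31.1% of all genes of at least 1 CPM), and DESeq2 called 5 higher and 0 lower. Oasl2, an antiviral gene, was at 16.6 ± 2.74, 31.9 ± 1.57, and 76.2 ± 4.502 CPM (SD, n = 4), with log2 fold changes of 1.20 (SE 0.0886, edgeR adjusted p = 2.51e-13) with blank particles and 1.27 (SE 0.0832, edgeR adjusted p = 5.05e-14) in CITED against MDSC-NP-Blk. Ifi204, a sensor of DNA, changed by 1.14 with blank particles (SE 0.0774, edgeR adjusted p = 3.55e-14). The transcription factor Irf1 differed by 0.75 (SE 0.0556, edgeR adjusted p = 3.04e-13), short of the fold change limit. Other Schlafen genes of the list, named after their values were seen, had MDSC-NP-Blk against MDSC log2 fold changes of 0.59 (Slfn1), -0.19 (Slfn5), and 0.44 (Slfn8) and were short of the fold change limit.

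Gdf15 was the member among ATF4 targets and amino acid genes. Of the 39 others, 0 rose and 8 fell with blank particles (1.88% and 2.86% of all genes tested), 1 rose and 5 fell in CITED against MDSC-NP-Blk (0.651% and 2.00%), and 3 rose and 14 fell in CITED against MDSC (3.28% and 6.70%). The median was -0.48 with blank particles, or -0.75 with column totals, under which 0 rose and 13 fell. At an unadjusted p below 0.05, 9 were higher and 25 lower with blank particles (33.2% and 31.1% of all genes of at least 1 CPM), and DESeq2 called 0 higher and 8 lower. Psat1, an enzyme of serine synthesis, had means of 80.4 ± 4.55, 24.3 ± 3.25, and 21.9 ± 1.09 CPM (SD, n = 4), and fell by 1.46 on the log2 scale with blank particles (SE 0.0806, edgeR adjusted p = 2.18e-16). It differed by -0.14 in CITED against MDSC-NP-Blk (SE 0.0837, edgeR adjusted p = 0.249). Aldh18a1, an enzyme of proline synthesis, fell by 1.46 on the log2 scale with blank particles (SE 0.0885, edgeR adjusted p = 1.83e-15) and stood at 10.4 ± 1.07 CPM in CITED, below its 13.95 ± 1.68 CPM in MDSC-NP-Blk. Slc3a2, the heavy chain of amino acid transporters, differed by 0.71 with blank particles (SE 0.0455, edgeR adjusted p = 8.49e-15), short of the fold change limit, and was higher in CITED than in MDSC by 1.20 (SE 0.0458, edgeR adjusted p = 3.93e-21). Gdf15 itself was lower with blank particles and highest in CITED.

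Cd36 was the member among genes of lipid-associated macrophages. Of the 17 others, 1 rose (Apoe) and 2 fell (Mrc1 and Fabp5) with blank particles, 1 rose (Gpnmb) and 0 fell in CITED against MDSC-NP-Blk, and 5 rose and 2 fell in CITED against MDSC. Of all genes tested, 1.88% and 2.86%, 0.651% and 2.00%, and 3.28% and 6.70% rose and fell in the same order. In CITED against MDSC-NP-Blk, 12 were higher and 3 lower at an unadjusted p below 0.05 (22.3% and 22.6% of all genes of at least 1 CPM), and DESeq2 called 1 higher and 0 lower. The blank particle median was 0.13 and turned to -0.14 with column totals, with 0 that rose and 3 that fell, and in CITED against MDSC 1 rose and 4 fell under column totals. Mrc1, the mannose receptor, was at 83.1 ± 8.76, 14.5 ± 2.85, and 9.85 ± 1.93 CPM (SD, n = 4), and its blank particle log2 fold change was -2.24 (SE 0.111, edgeR adjusted p = 1.11e-17). It stood lower still in CITED, unlike Cd36 and Stab1. The fatty acid carrier Fabp5 fell by 1.22 on the log2 scale (SE 0.0650, edgeR adjusted p = 8.85e-17) and was 0.28 higher in CITED than in MDSC-NP-Blk, and the lipoprotein gene Apoe rose by 1.06 (SE 0.0626, edgeR adjusted p = 1.07e-15).

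Hsph1 was the member among chaperones. Of the 25 others, 0 rose and 1 fell with blank particles (1.88% and 2.86% of all genes tested), 0 were called in CITED against MDSC-NP-Blk (0.651% and 2.00%), and 0 rose and 1 fell in CITED against MDSC (3.28% and 6.70%). At an unadjusted p below 0.05, edgeR placed 6 higher and 14 lower with blank particles, 5 higher and 8 lower in CITED against MDSC-NP-Blk, and 9 higher and 13 lower in CITED against MDSC, and at the adjusted p and fold change limits DESeq2 made the same number of calls as edgeR. The unadjusted shares of all genes of at least 1 CPM were 33.2% and 31.1%, 22.3% and 22.6%, and 35.8% and 34.2% in the same order. With column totals, 3 fell with blank particles and 4 fell in CITED against MDSC. Sdf2l1, of the endoplasmic reticulum, fell by 1.48 on the log2 scale with blank particles (SE 0.0850, edgeR adjusted p = 5.26e-16), and it stood at 30.9 ± 4.296 CPM in CITED, within the spread of MDSC-NP-Blk at 29.8 ± 3.47 CPM. Calr and Hspa5, lumenal chaperones, differed with blank particles by -0.90 and -0.84 (edgeR adjusted p = 4.19e-16 and 2.97e-15), short of the fold change limit, and in CITED against MDSC-NP-Blk by -0.02 and 0.06.

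In bulk libraries, fewer cells of a type and less RNA per cell cannot be told apart. Several lowered genes, among them Cd36, Stab1, Ctsk, and Atp6v0d2, are known from macrophages. Of 12 monocytic and macrophage markers, 1 rose and 4 fell with blank particles (1.88% and 2.86% of all genes tested), with a median log2 fold change of -0.65, and 0 rose and 3 fell in CITED against MDSC-NP-Blk (0.651% and 2.00%), with a median of -0.54. At an unadjusted p below 0.05, edgeR placed 3 higher and 8 lower in the first comparison (33.2% and 31.1% of all genes of at least 1 CPM) and 3 higher and 9 lower in the second (22.3% and 22.6%), and DESeq2 called as many genes as edgeR in both. Their summed level was 2280 to 2368 CPM in MDSC, 2354 to 2496 CPM in MDSC-NP-Blk, and 1873 to 1950 CPM in CITED, with none at or under 3 counts in every library. Pdpn and Gpc3 are also known from stromal cells, of whose 11 markers 4 reached 1 CPM, with a summed level of 47.5 to 65.5 CPM in MDSC, 38.2 to 49.3 CPM in MDSC-NP-Blk, and 38.9 to 44.8 CPM in CITED, and with Col3a1, Pdgfra, and Lum at or under 3 counts in every library. The stromal medians had the signs of the lowered genes, -0.27 with blank particles and 0.25 in CITED against MDSC-NP-Blk, with 0 called in either. Eosinophil markers (7 of 8 at 1 CPM or more) summed to 1522 to 1863 CPM in MDSC, 1008 to 1218 CPM in MDSC-NP-Blk, and 414 to 431 CPM in CITED, with medians of -0.03 with blank particles and -1.20 in CITED against MDSC-NP-Blk.

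With TMM factors, the medians of the granulocytic, mast cell and basophil, erythroid and platelet, and progenitor markers had the signs of the raised genes. The erythroid and platelet medians, from 4 genes of at least 1 CPM, were 0.55 with blank particles and -0.58 in CITED against MDSC-NP-Blk, with 0 called in either. Progenitor markers had medians of 0.22 and -0.43, with 0 called and then 2 that fell, and the first turned to -0.04 with column totals. Of 11 granulocytic markers, 2 rose and 0 fell with blank particles (1.88% and 2.86% of all genes tested), with a median of 0.45, and 0 rose and 2 fell in CITED against MDSC-NP-Blk (0.651% and 2.00%), with a median of -0.33. Their summed level was 39808 to 43360 CPM in MDSC, 46820 to 49022 CPM in MDSC-NP-Blk, and 34629 to 38197 CPM in CITED, and at an unadjusted p below 0.05 there were 10 higher and 1 lower in the first comparison and 2 higher and 6 lower in the second. At that p, 33.2% of all genes of at least 1 CPM were higher and 31.1% lower in the first, and 22.3% and 22.6% in the second. Of 11 mast cell and basophil markers, 7 reached 1 CPM, with Mcpt4 and Cma1 at or under 3 counts in every library. Their medians were 0.25 and -0.88, and the first turned to -0.01 with column totals. By edgeR and DESeq2 alike, 0 were called with blank particles (5 higher and 0 lower at an unadjusted p below 0.05) and 2 fell in CITED against MDSC-NP-Blk, and the list summed to 412 to 444 CPM in MDSC, 430 to 522 CPM in MDSC-NP-Blk, and 264 to 279 CPM in CITED. The part of these cell types in the levels of the members was not tested.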

How the data were processed

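Poly(A)-enriched RNA of 12 libraries was sequenced as read pairs. The deposited table holds raw counts, 1 whole number for each gene symbol and library, for which the authors ran Salmon 1.4.0 on GENCODE transcripts of GRCm39 and summarized transcripts with tximport in R 4.3.2. Groups and replicate numbers came from the sample titles. An entry with an empty symbol was left out.

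The rule for members used CPM by column total, as the text gives it. The 17676 genes with at least 2 counts over the 12 libraries, which include all 49 members, were tested with the quasi-likelihood test of edgeR 4.0.16 (R 4.3.3, TMM factors, group as the term, all 12 libraries in 1 fit), with Benjamini-Hochberg adjustment over all genes tested. Calls needed an adjusted p below 0.05 and a log2 fold change of at least 1 in size. Calls of members are not given, since the rule used those contrasts. The biological coefficient of variation was 9.03%. P-values measure the spread between these libraries, whose separate cultures or animals are not named. A value of 3 counts was taken as the floor, which covers counting error only. The log2(CPM + 0.5) scale understates differences of low genes.

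Members and gene lists (39 lists, 928 entries) were chosen with earlier results of these data known. Named members were, in each class, the 10 with the largest smaller difference, the 5 with the highest CPM, the 3 just inside the limit, and those in a list. From each list that held a member, the 3 other genes with the lowest p in MDSC-NP-Blk against MDSC were named. Further members were named after their values were seen, to account for the module.

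Transcript models, promoters, and shared 31-base words on the same strand came from GENCODE release M39, which may differ from the authors' release. Length was corrected with a lowess curve (span 0.5). Alternatives were DESeq2 1.42.0, other scalings, filters, and limits, a replicate block, and fits that left out 1 library. Libraries with the same number did not deviate together (mean r of -0.002, 0.040, and -0.009), so they were not treated as pairs. The fits were tested on simulated data with known changes. Figures were drawn with matplotlib 3.10.9.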

Additional observations from a re-analysis of the deposited data

Results flagged for a closer look

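Of 147 sets of 4 libraries (49 members in 3 groups), 11 held a library whose gap to its nearest neighbor took up more of the range than Dixon's 95% critical value for 4 samples. Chance flags about 1 in 20 such sets. Of the 11, 6 were in MDSC-NP-Blk, 2 in MDSC, and 3 in CITED.

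Among the raised genes, MDSC-NP-Blk replicate 1 stood apart for Pagr1a at 24.2 CPM (others 0.360 to 3.38), for Gm4294 at 19.0 CPM (others 0 to 0.872), and for Nrgn at 12.8 CPM (others 10.5 to 10.7). Gm4294 also stood apart in CITED replicate 2, at 5.15 CPM with the others at 0, and Gpc3 in MDSC replicate 4, at 1.39 CPM (others 1.77 to 1.80). For Nrgn the other 3 MDSC-NP-Blk libraries were still above all MDSC and CITED libraries.

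Among the lowered genes, Gm10221 was at 0 in MDSC replicate 4 (others 3.39 to 4.02 CPM), and Gm18939 at 0.520 CPM in MDSC-NP-Blk replicate 3 with the others at 0. Lrrc75b was high in MDSC-NP-Blk replicate 4 at 3.37 CPM (others 1.92 to 2.04), and Gdf15 in MDSC-NP-Blk replicate 3 at 3.52 CPM (others 2.96 to 3.05), both still under every MDSC and CITED library. In CITED replicate 2, Hsph1 stood at 38.6 CPM (others 28.9 to 30.3) and Zfp287 at 2.43 CPM (others 1.33 to 1.48).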

How the results depend on the processing

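The number of members was 49. It was 21 (6 raised, 15 lowered) when 2 CPM was added before the log, 21 (3 raised, 18 lowered) at a mean of at least 5 CPM, 16 (6 raised, 10 lowered) at a limit of 1, and 67 with no minimum. Raised genes numbered 27 with TMM factors, 26 with DESeq2 size factors, 25 after the length correction, and 5 without genes that share sequence, and lowered genes 20 after the length correction. The length correction and the removal of genes that share sequence were chosen after seeing the data. Leaving out 1 library gave 45 to 66 members (10 to 17 raised, 33 to 49 lowered), and 26 of the 49 met the rule in all 12 such runs. The median CITED minus MDSC difference of the lowered genes, -0.19, was -0.235 to -0.125 without 1 library and turned to 0.0348 with TMM factors. For Gm4294, the CITED against MDSC-NP-Blk log2 fold change ranged from -10.025 (without CITED replicate 2) to 1.99 (without MDSC-NP-Blk replicate 1). For these results the cause was not tested.

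Genes called in MDSC-NP-Blk against MDSC, CITED against MDSC-NP-Blk, and CITED against MDSC numbered 838, 469, and 1765, and 6815, 3883, and 7862 with no fold change limit. Without scaling factors, CITED against MDSC gave 272 calls upwards and 1890 downwards, against 580 and 1185. With the replicate block the counts were 766, 441, and 1621, and without 1 library 722 to 892, 417 to 474, and 1631 to 1772. Of the fold changes of named genes under the alternatives, 510 stayed on their side of the threshold, 31 fell short of it, 14 passed it, and 1 changed direction. Depth limits the module most where counts are few, since 28 of 49 members had a mean under 5 CPM.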
